A study of Mus musculus with 16 samples.

Results

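Of the 20601 genes in the deposited table, 10 were followed. These were the carriers that move bile acids and bile lipids through the hepatocyte and the nuclear receptor pair that senses them. They were picked by gene symbol, with earlier results of these data known, so the set was not chosen blind to the data. They were 4 basolateral uptake carriers (Slc10a1, Slco1a1, Slco1a4 and Slco1b2), 3 canalicular exporters (Abcb11, Abcb4 and Abcc2), 1 basolateral exporter (Abcc3) and 2 nuclear receptors (Nr1h4 and Nr0b2). All 10 symbols were found, and all 10 were among the 13432 genes that passed the filter on low values. Polyadenylated RNA was sequenced from liver tumors and from nontumor liver of 8 mice. In every mouse a human N-Ras plasmid (19 µg) and a human c-Myc plasmid (1 µg) had been delivered to the liver by hydrodynamic injection together with a plasmid for the Sleeping Beauty transposase (2 µg), an enzyme that inserts such constructs into the genome. At week 4 the mice were given a ketogenic diet (KD), made up of 89.5% fat, 10.4% protein and 0.1% carbohydrate, or stayed on a normal diet (ND), and both tissues were taken at week 8. The groups were ND nontumor, ND tumor, KD nontumor and KD tumor, with 4 libraries each. Nontumor liver therefore came from injected mice with tumors elsewhere in the liver, and no uninjected liver was among the samples. Strain, sex, age and the promoters of the plasmids were not given in the sources used here.

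Bile acids are made from cholesterol in hepatocytes, pumped into the bile canaliculus, taken up again in the gut and returned to the liver in portal blood. Sodium-dependent uptake from that blood runs mainly through Slc10a1 (NTCP), and sodium-independent uptake through carriers of the organic anion transporting polypeptide family such as Slco1a1, Slco1a4 and Slco1b2, which also take up drugs and bilirubin. Abcb11 (the bile salt export pump) moves bile salts into the canaliculus, Abcb4 supplies phosphatidylcholine to bile, Abcc2 exports conjugated bilirubin and other conjugates, and Abcc3 exports conjugates back to blood. Nr1h4 encodes FXR, the nuclear receptor that binds bile acids, and Nr0b2 encodes SHP, a repressor that FXR induces and that in turn lowers transcription of bile acid synthesis genes.

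FXR binds with RXR to an inverted repeat of the half-site AGGTCA with 1 base between the copies, a 13-letter element. The 250 bases upstream of the RefSeq start sites (GRCm38.p6) were searched for it on both strands in the 9 members that had an entry. Those of 3 members are shown. They are the bile salt pump and an uptake carrier, whose windows held a near match, and SHP, the usual FXR target. The results below do not rest on these matches. Capitals mark the match to the element, and each runs 5′ to 3′ on the strand of its gene, ending at the base before the start. They lie at chr2:69342617-69342866 on the minus strand (Abcb11), at chr6:141629268-141629517 on the plus strand (Slco1b2) and at chr4:133553126-133553375 on the plus strand (Nr0b2).
Abcb11: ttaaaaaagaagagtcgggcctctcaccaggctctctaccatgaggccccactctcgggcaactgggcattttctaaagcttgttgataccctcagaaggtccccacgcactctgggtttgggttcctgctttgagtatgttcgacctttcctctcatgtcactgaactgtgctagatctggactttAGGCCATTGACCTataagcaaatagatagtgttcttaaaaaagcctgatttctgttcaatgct
Slco1b2: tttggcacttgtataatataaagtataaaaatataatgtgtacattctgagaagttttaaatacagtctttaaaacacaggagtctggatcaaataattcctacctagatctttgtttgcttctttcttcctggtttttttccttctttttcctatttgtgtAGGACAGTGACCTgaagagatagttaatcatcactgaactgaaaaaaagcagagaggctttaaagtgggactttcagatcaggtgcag
Nr0b2: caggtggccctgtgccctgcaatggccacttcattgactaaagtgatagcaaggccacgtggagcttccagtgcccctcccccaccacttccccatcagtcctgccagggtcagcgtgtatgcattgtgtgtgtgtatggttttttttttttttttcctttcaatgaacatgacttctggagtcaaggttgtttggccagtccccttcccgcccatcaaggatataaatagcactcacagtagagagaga
The Abcb11 match ran from -63 to -51 and differed from the element by T4C, with positions counted from 1 at the 5′ end of the element. The Slco1b2 match ran from -88 to -76 and differed by T4A. The Slco1b2 window ends at 141629517, inside the gene span given below, which begins at 141629452. Its positions are thus counted from a different start than that of the span. A match with at most 1 mismatch was found in 26 of 32851 promoter windows of this length (0.0791%). In Nr0b2 the closest stretch had 4 mismatches, which 50.0% of all windows also held, so nothing is capitalised there. Only these 250 bases were searched, so an element further upstream would not be seen. The closest stretches of the other members searched had 3 to 5 mismatches. These matches describe letters in a window and not binding.

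Levels are given as TPM (the authors' abundance per transcript length) divided by a scaling factor for each library, and called rescaled TPM below. The scaling was needed because the listed genes made up 7.38% of the TPM total in ND nontumor 4 and 50.0% to 88.4% in the other libraries. Depth over the listed genes ran from 3.52 (ND nontumor 4) to 14.1 M reads. On this scale the median tested gene moved by 0.03 or less (log2) in every comparison, and tests were run with limma over all 13432 genes with Benjamini-Hochberg adjustment at 0.05. Fold changes are differences of log2(rescaled TPM + 1), which understates the change of low genes. The 2 tissues came from the same 8 mice, with no stated link between tumor and nontumor numbers, and the tests reflect the scatter among libraries. Lower RNA of a gene in bulk tissue can come from fewer cells of a type or from less RNA per cell, and these cannot be told apart here.

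In ND tumors 8 of the 10 genes fell and none rose, against a background of 14.2% of tested genes called lower, 14.5% called higher and 28.7% called in either direction. In KD tumors 9 of 10 fell and none rose, with 16.2% of tested genes called lower, 16.3% higher and 32.5% in either direction. The median log2 fold change of the 10 was -1.48 on ND and -1.20 on KD, where that of all tested genes was -0.00 and 0.01. Tumor and nontumor libraries did not overlap for 8 of 10 genes on ND (27.5% of tested genes) and for 6 of 10 on KD (33.1%). Between the diets in tumors, Slc10a1 was the member that rose on KD (7.21% of tested genes were called higher) and Abcc3 the member that fell (8.49% were called lower, 15.7% in either direction). The tumors of the 2 diets did not overlap for 1 of the 10 genes (22.9% of tested genes). Between the diets in nontumor liver no member passed, where 0.00744% of tested genes were called higher, 0.0372% lower and 0.0447% in either direction. Of the 10 genes 2 had an unadjusted p under 0.05 there, and 3 had groups that did not overlap (5.98% of tested genes). The interaction, which asks whether the diet difference in tumors differed from that in nontumor liver, passed for no member (0.208% of tested genes called higher, 0.402% lower and 0.61% in either direction), and 1 member had an unadjusted p under 0.05. On whole reads recovered from the TPM values, limma-voom called the same numbers, 8, 9, 2, 0 and 0 of the 10 genes.

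**Figure D1:**
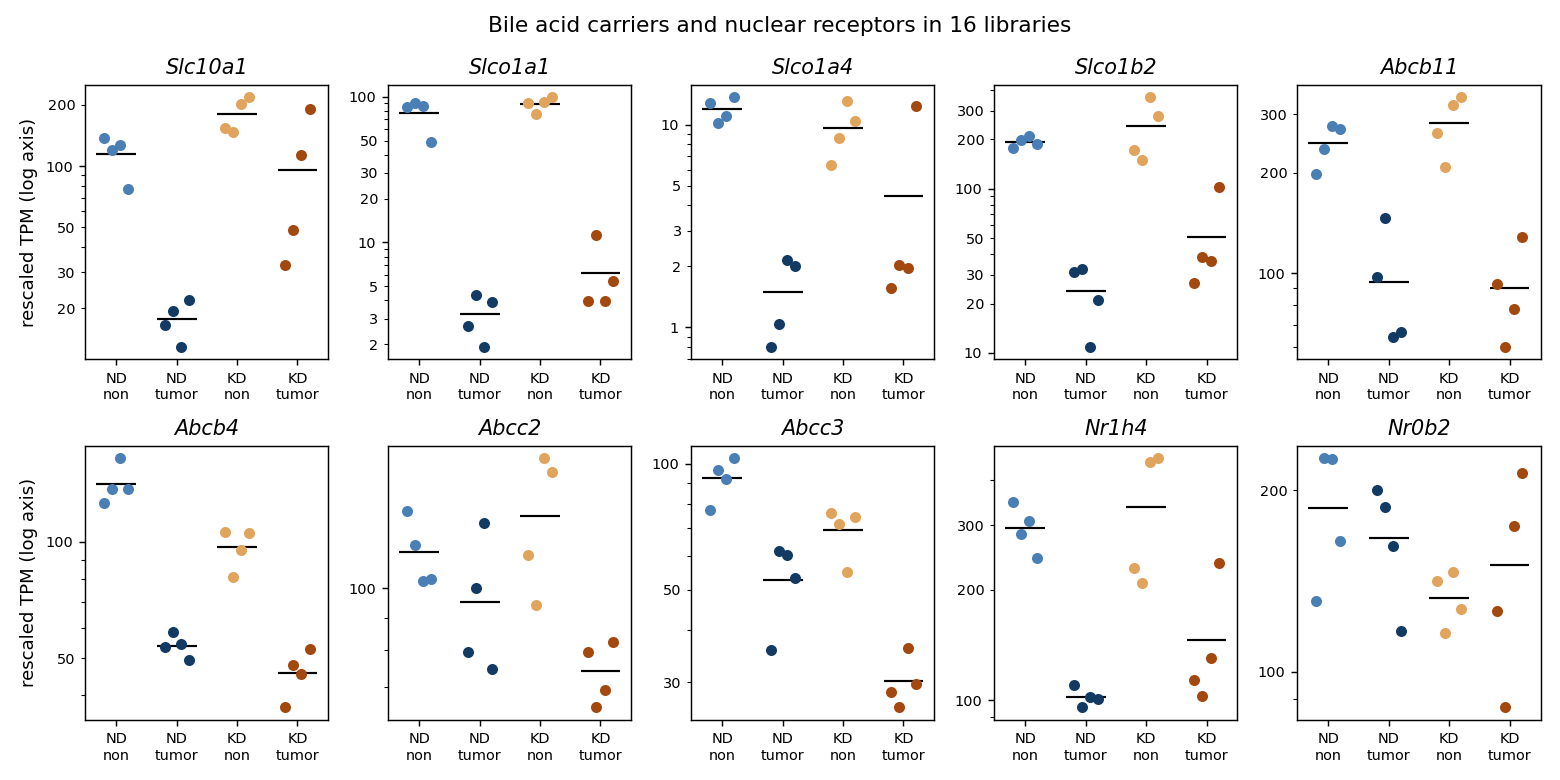
Rescaled TPM (log axis, a separate range in each panel) of the 10 genes in 4 groups of 4 libraries; points are libraries and black lines are group means. Tumor and nontumor points of the 4 uptake carriers are apart on ND and those of Slc10a1 and Slco1a4 overlap on KD, Nr0b2 shows overlapping groups, and KD tumor 4 is the highest KD tumor library for 8 of the 10 genes.

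**Figure D2:**
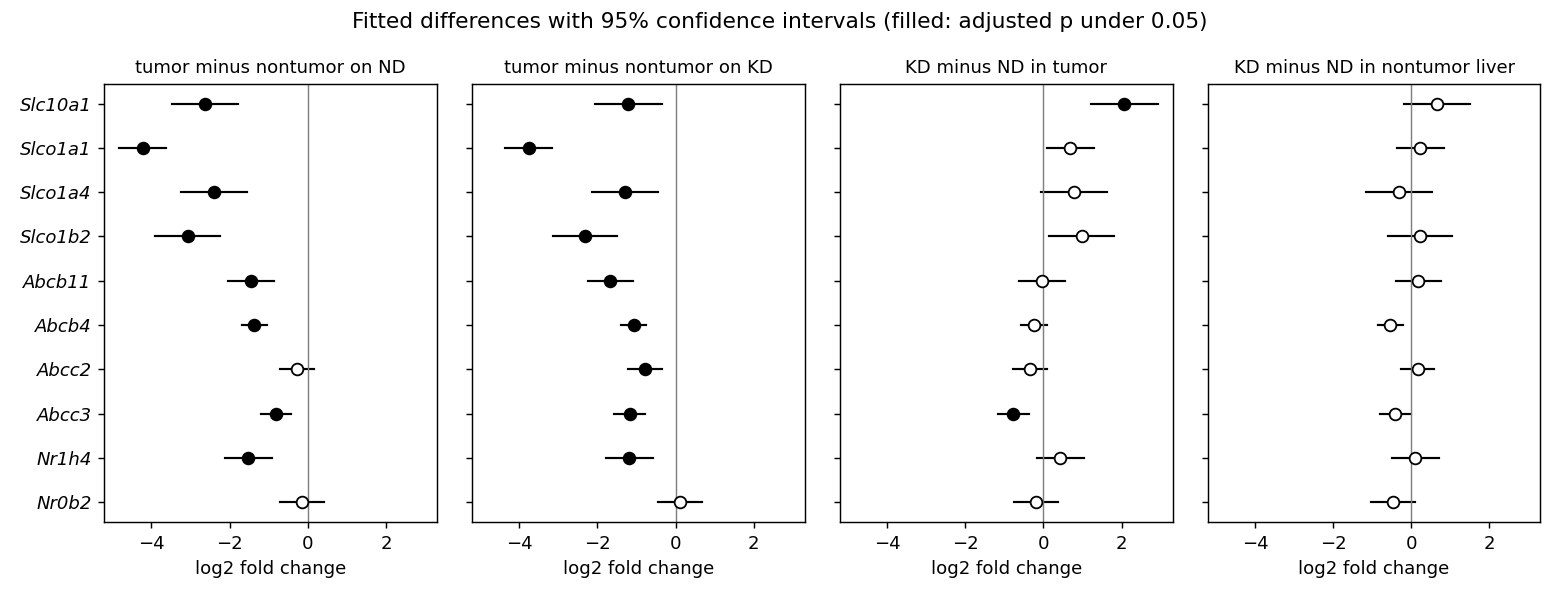
Fitted log2 fold changes (points) with 95% confidence intervals (lines) of the 10 genes in 4 comparisons; filled points passed at an adjusted p of 0.05 over all tested genes. Filled points lie left of 0 for 8 genes on ND and 9 on KD, and only Slc10a1 and Abcc3 are filled between the diets in tumors.

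Slc10a1, the sodium-dependent uptake carrier (chromosome 12, 80953185 to 80968705, GRCm38.p6), was the gene for which the tumors of the 2 diets stood furthest apart. Rescaled TPM were 137, 119.55, 126 and 76.9 in ND nontumor libraries 1 to 4, and 16.6, 19.4, 13.0 and 21.9 in ND tumors. On KD they were 154, 146, 203 and 218 in nontumor liver and 32.5, 48.5, 113 and 189.8 in tumors. All 4 ND tumors lay below every other library, whereas KD tumors were spread from near the ND tumor range up into the nontumor range. In ND tumors Slc10a1 fell, with a log2 fold change of -2.62 (SE 0.40, adjusted p = 0.000157). In KD tumors it fell by 1.21 on the log2 scale (SE 0.40, adjusted p = 0.0298), with library 4 inside the nontumor range. KD tumors were above ND tumors by 2.07 (SE 0.40, adjusted p = 0.00449), and 4 of 4 KD tumors exceeded all ND tumors. The difference between those diet effects was not resolved, as the interaction was 1.42 with a 95% confidence interval of 0.22 to 2.62 (adjusted p = 0.207). In nontumor liver the KD libraries were all above the ND libraries, but the difference of 0.66 (SE 0.40) did not pass (adjusted p = 0.687).

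The size of the Slc10a1 difference between diets rested partly on KD tumors 3 and 4. Without KD tumor 4 it was 1.64 (SE 0.34, adjusted p = 0.0116), and without both KD tumors 3 and 4, left out together because their Slc10a1 was the highest of the group, it was 1.15 (SE 0.28) and no longer passed (adjusted p = 0.0524). The fall of Slc10a1 in KD tumors was larger without them, at -1.64 without KD tumor 4 and -2.14 without both (adjusted p = 0.00202 and 0.000140). Leaving out the highest KD tumors must shrink the diet difference and enlarge the fall, so these values show only how far each moves. The fall missed the threshold without KD nontumor 3 (-1.15, adjusted p = 0.0691), KD nontumor 4 (-1.11, adjusted p = 0.0791), KD tumor 1 (-0.80, adjusted p = 0.105) or KD tumor 2 (-0.99, adjusted p = 0.0970).

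The 3 organic anion carriers lie in a row on chromosome 6, with Slco1b2 at 141629452 to 141686646, Slco1a4 at 141805438 to 141856284 and Slco1a1 at 141907281 to 141946962 (GRCm38.p6). Slco1a1 and Slco1a4 belong to a multigene family, and how reads shared between such genes were counted was not given in the sources used here.

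Slco1a1, a carrier known for higher expression in male than in female mouse liver, had the largest tumor difference of the 10 genes on both diets. Rescaled TPM were 84.6, 90.4, 87.1 and 48.9 in ND nontumor liver and 2.65, 4.38, 1.93 and 3.91 in ND tumors. In KD nontumor liver they were 90.1, 76.0, 92.0 and 99.0, and in KD tumors 3.94, 11.2, 3.94 and 5.43. Every tumor was far below every nontumor library, and the tumor values rested on 56 to 337 reads. Slco1a1 fell by 4.22 on ND (SE 0.28, adjusted p = 4.92e-08) and by 3.76 on KD (SE 0.28, adjusted p = 2.98e-07) on the log2 scale. The tumors of the 2 diets overlapped, and their difference of 0.69 (95% confidence interval 0.10 to 1.29) did not pass after adjustment (adjusted p = 0.101).

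Slco1b2, the liver carrier for bilirubin, bile acids and many drugs, was the most abundant of the uptake genes in nontumor liver. Its rescaled TPM were 176, 198, 211 and 189 in ND nontumor liver and 31.3, 32.5, 10.9 and 20.9 in ND tumors. They were 172, 149, 361 and 278 in KD nontumor liver and 26.8, 38.7, 36.4 and 102 in KD tumors. Tumor and nontumor libraries were separate on both diets, and KD tumor 4 was well above the other KD tumors. Slco1b2 fell by 3.07 on ND (SE 0.39, adjusted p = 2.8e-05) and by 2.32 on KD (SE 0.39, adjusted p = 0.000394). The diet difference in tumors was 0.98 (adjusted p = 0.0952), and it was 0.58 (adjusted p = 0.276) without KD tumor 4.

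Slco1a4, a relative of Slco1a1 that is also induced by drugs in mouse liver, had the lowest mean of the 10 genes in each group. It was above Slco1a1 in ND tumor 3 and in KD tumor 4. Its rescaled TPM were 12.8, 10.2, 11.0 and 13.6 in ND nontumor liver and 0.804, 1.03, 2.15 and 2.02 in ND tumors, the latter from 24 to 94 reads. In KD nontumor liver they were 6.29, 8.63, 13.0 and 10.4, and in KD tumors 1.56, 2.03, 1.97 and 12.3. KD tumors 1 to 3 were at the level of ND tumors, while KD tumor 4 was within the nontumor range. Slco1a4 fell by 2.40 on ND (SE 0.40, adjusted p = 0.000327). On KD it fell by 1.30 (SE 0.40, adjusted p = 0.0205), and by 1.86 (adjusted p = 5.88e-05) without KD tumor 4. The KD call was lost without KD nontumor 3 (-1.15, adjusted p = 0.0625), KD nontumor 4 (-1.25, adjusted p = 0.0515), KD tumor 1 (-1.06, adjusted p = 0.0702), KD tumor 2 (-1.14, adjusted p = 0.0637) or KD tumor 3 (-1.14, adjusted p = 0.0648). Between the diets in tumors it differed by 0.78 (adjusted p = 0.183), and by 0.23 (adjusted p = 0.559) without KD tumor 4.

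Summed, the 4 uptake carriers stood at 398 ± 47.8 rescaled TPM in ND nontumor liver and at 46.4 ± 12.8 in ND tumors (mean ± SD, n = 4). The sum was 519 ± 139 in KD nontumor liver and 158 ± 108 in KD tumors, where it ranged from 64.8 to 309.9. The make-up of this sum differed too. Slc10a1 took 28.6% ± 4.08 of it in ND nontumor liver and 39.3% ± 7.30 in ND tumors. On KD its share was 35.3% ± 3.52 in nontumor liver and 58.1% ± 11.3 in tumors, so that each KD tumor (48.3% to 72.8%) was above each of the other 12 libraries. Slco1a1 went from 19.3% ± 2.99 to 6.93% ± 1.27 of the sum on ND and from 17.9% ± 3.44 to 5.39% ± 4.30 on KD. These shares do not depend on the scaling of a library, and no test was run on them.

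**Figure D3:**
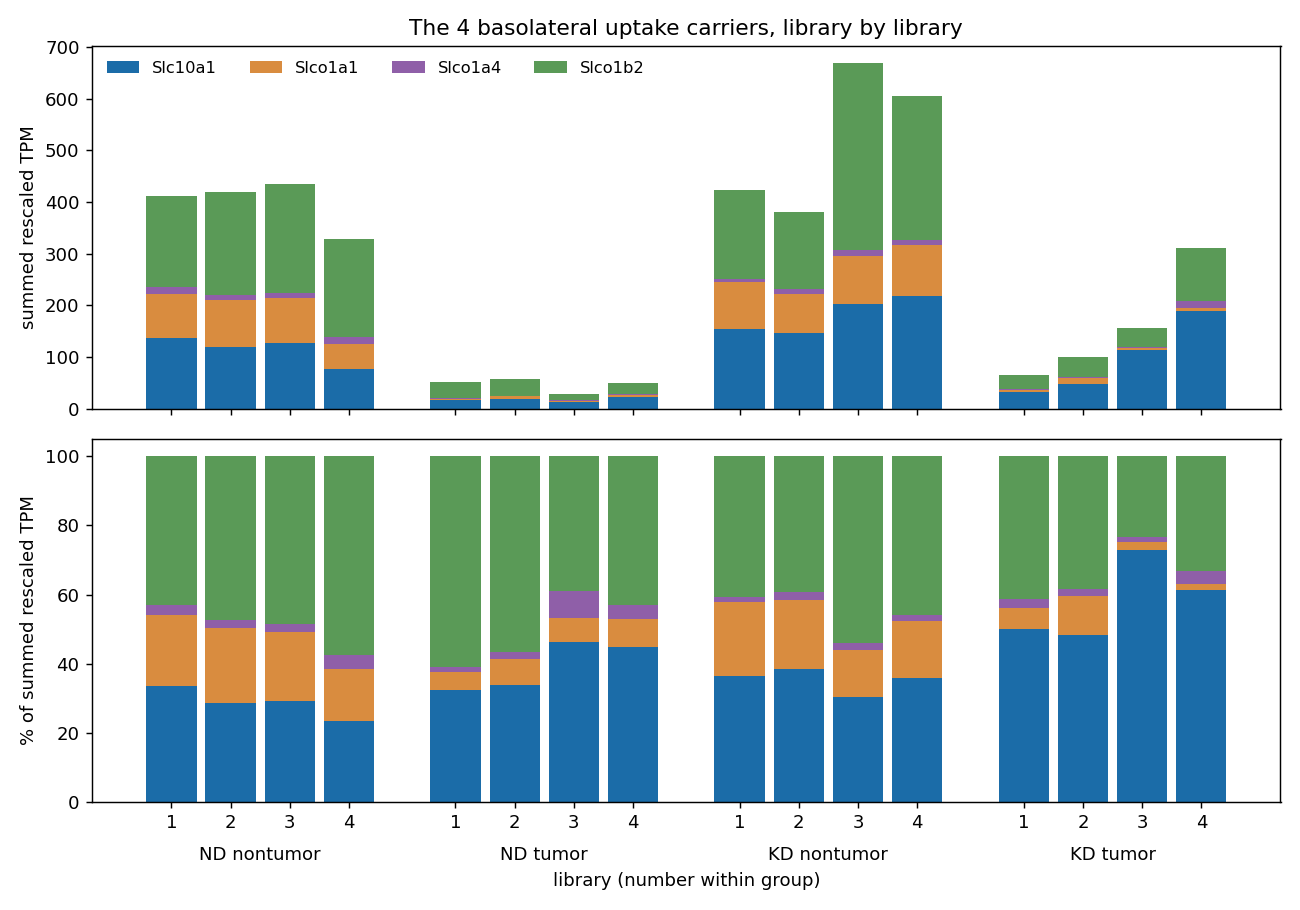
Rescaled TPM of the 4 basolateral uptake carriers stacked for each of 16 libraries (top) and as a share of their sum (bottom). The sums are low in the 4 ND tumors (28.0 to 57.3), run from 64.8 to 309.9 in KD tumors, and Slc10a1 takes a larger share in KD tumors than in any other library.

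Of the canalicular exporters, Abcb11 and Abcb4 fell in tumors on both diets. Abcb11, the bile salt pump with the near match at -63 to -51 shown above (chromosome 2, 69238282 to 69342616), had rescaled TPM of 199, 236, 278 and 271 in ND nontumor liver and 97.5, 147, 64.2 and 66.6 in ND tumors. It had 263, 208, 319 and 337 in KD nontumor liver and 93.0, 60.1, 78.2 and 129 in KD tumors. All 8 tumors were below all 8 nontumor libraries. Abcb11 fell by 1.45 on ND (SE 0.28, adjusted p = 0.000936) and by 1.67 on KD (SE 0.28, adjusted p = 0.000339). Between the diets in tumors it differed by -0.03, with a 95% confidence interval of -0.61 to 0.55, which leaves room for a difference in either direction.

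Abcb4, the phosphatidylcholine floppase (chromosome 5, 8893614 to 8959226), had the smallest standard error of the 10 genes in these fits. Rescaled TPM were 126, 137, 165 and 137 in ND nontumor liver and 53.4, 58.5, 54.3 and 49.4 in ND tumors. They were 106, 80.9, 95.5 and 106 in KD nontumor liver and 37.3, 47.9, 45.5 and 52.6 in KD tumors. Abcb4 fell by 1.37 on ND (SE 0.15, adjusted p = 8.22e-06) and by 1.07 on KD (SE 0.15, adjusted p = 0.00011). In nontumor liver each KD library was below each ND library, by -0.54 in the fit (95% confidence interval -0.86 to -0.21), which did not pass over all genes (unadjusted p = 0.0029, adjusted p = 0.232).

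Abcc2, the exporter of bilirubin conjugates (chromosome 19, 43782308 to 43838332), had the smallest tumor differences of the exporters on both diets. Its rescaled TPM were 132, 117, 103 and 103 in ND nontumor liver and 79.5, 100.2, 127 and 74.8 in ND tumors, so the ND groups overlapped. In KD nontumor liver it had 113, 94.2, 160.1 and 152, and in KD tumors 79.6, 65.1, 69.3 and 82.5, with no overlap. Abcc2 fell by 0.77 on KD (SE 0.20, adjusted p = 0.00853). On ND its log2 fold change was -0.28 (95% confidence interval -0.71 to 0.15, adjusted p = 0.333), and the 2 tumor effects were not shown to differ (interaction -0.50, adjusted p = 0.375).

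The summed canalicular exporters were 501 ± 37.2 rescaled TPM in ND nontumor liver, 243 ± 47.5 in ND tumors, 509 ± 97.2 in KD nontumor liver and 209.9 ± 38.9 in KD tumors. The lowest canalicular sum exceeded the highest uptake sum both in ND nontumor liver (457 against 435) and in ND tumors (191 against 57.3), while on KD the ranges of the sums overlapped in both tissues.

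Abcc3, which exports conjugates across the basolateral membrane (chromosome 11, 94343295 to 94393017), was lower in tumors and lower on KD. Rescaled TPM were 77.6, 96.4, 91.7 and 103 in ND nontumor liver and 35.9, 61.9, 60.3 and 53.2 in ND tumors. They were 76.3, 71.7, 55.0 and 74.4 in KD nontumor liver and 28.5, 26.2, 36.3 and 29.7 in KD tumors. Abcc3 fell by 0.81 in ND tumors (SE 0.19, adjusted p = 0.00361) and by 1.17 in KD tumors (SE 0.19, adjusted p = 0.000244). KD tumors were below ND tumors by -0.77 (SE 0.19, adjusted p = 0.0138), with KD tumor 3 (36.3) just above ND tumor 1 (35.9) and no other overlap. The difference was -0.76 (adjusted p = 0.0366) without KD tumor 4 and -0.89 (adjusted p = 0.0610) without KD tumors 3 and 4. In nontumor liver all KD libraries were below all ND libraries, by -0.41 (unadjusted p = 0.0419, adjusted p = 0.535). In tumors Abcc3 and Slc10a1 differed between the diets in opposite directions.

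The log2 ratio of Abcc3 to Abcb11, the exporters of the basolateral and the canalicular membrane, does not depend on library scaling. It was -1.41 ± 0.13 in ND nontumor liver, -0.77 ± 0.67 in ND tumors, -2.01 ± 0.44 in KD nontumor liver and -1.53 ± 0.47 in KD tumors (SD, n = 4). The log2 ratio of Slco1a4 to Slco1a1 was -2.67 ± 0.58, -1.15 ± 0.99, -3.26 ± 0.43 and -0.91 ± 1.53 in the same groups. Tumor minus nontumor, this ratio differed by 1.52 on ND and by 2.36 on KD. In two-sided exact permutation tests of both ratios in 4 comparisons (8 in all), the KD tumor difference of Slco1a4 to Slco1a1 had the smallest p that 4 against 4 libraries allow (0.0286), and after adjustment over the 8 it was 0.152. No ratio passed after that adjustment. A single comparison at that smallest p could not have passed over the 8, so this outcome leaves the ratio differences undecided.

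Nr1h4, the bile acid receptor FXR (chromosome 10, 89454234 to 89533645), had the highest mean of the 10 genes in nontumor liver on both diets. Rescaled TPM were 347, 283, 308 and 245 in ND nontumor liver and 110.0, 95.5, 102 and 100.4 in ND tumors, which lay close together. They were 229, 209, 446 and 458 in KD nontumor liver and 113, 102, 129.98 and 237 in KD tumors. KD nontumor 1 and 2 formed a low pair and KD nontumor 3 and 4 a high pair, and KD tumor 4 reached the low pair. The pairs also differed in depth over the listed genes (11.0 and 11.0 against 6.13 and 5.68 M reads). Their listed share of the TPM total differed too (86.6% and 88.4% against 66.8% and 73.1%), and the part of either was not tested. Nr1h4 fell by 1.52 on ND (SE 0.29, adjusted p = 0.00086) and by 1.19 on KD (SE 0.29, adjusted p = 0.00479). The diet difference in tumors was 0.43 (95% confidence interval -0.17 to 1.03, adjusted p = 0.308), and 0.17 (adjusted p = 0.702) without KD tumor 4.

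Nr0b2, the FXR-induced repressor SHP (chromosome 4, 133553376 to 133556686), was the 1 gene of the 10 that passed in no comparison. Rescaled TPM were 131, 226, 225 and 165 in ND nontumor liver and 199.97, 188, 162 and 117 in ND tumors. They were 142, 116, 146 and 127 in KD nontumor liver and 126, 87.2, 175 and 214 in KD tumors. The groups overlapped in all 4 comparisons. The tumor difference was -0.16 on ND (95% confidence interval -0.72 to 0.41) and 0.11 on KD (95% confidence interval -0.46 to 0.67). These intervals do not reach the falls fitted for Nr1h4, -1.52 and -1.19, in the same libraries. In ND tumors Nr0b2 (167 ± 36.9) had the highest mean of the 10 genes, ahead of Nr1h4 (102 ± 6.03), with no overlap between them. The Nr0b2 range did overlap those of Abcb11 (up to 147) and Abcc2 (up to 127) there. In ND nontumor liver Nr1h4 (296 ± 42.9), Abcb11 (246 ± 36.3) and Slco1b2 (194 ± 14.5) had higher means than Nr0b2 (187 ± 47.0). The order went on with Abcb4 (141 ± 16.7), Slc10a1 (115 ± 26.5), Abcc2 (114 ± 13.9), Abcc3 (92.2 ± 10.8) and Slco1a1 (77.7 ± 19.4), and each gene overlapped with the next. Slco1a4 (11.9 ± 1.59) came last and lay below every library of the other 9 genes.

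**Figure D4:**
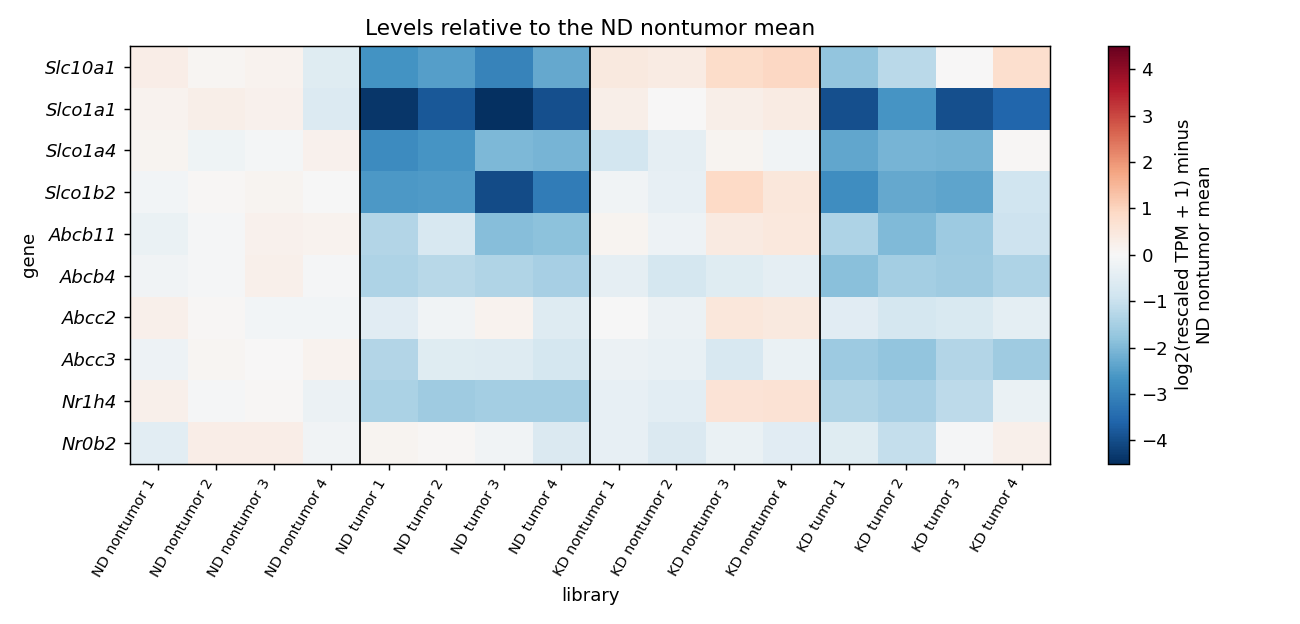
Log2(rescaled TPM + 1) of the 10 genes in 16 libraries minus the mean of the 4 ND nontumor libraries, with blue for lower and red for higher. Tumors are blue in the uptake rows, most deeply for Slco1a1, while KD tumor 4 is at or above the ND nontumor mean for Slc10a1 and Slco1a4, KD tumor 3 is near it for Slc10a1, and the Nr0b2 row stays pale.

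KD tumor 4 stood apart from the other KD tumors across the table. On the first principal component of all tested genes (46.7% of variance) it lay at 23.0, the other KD tumors at 46.0 to 52.9 and the nontumor libraries at -65.4 to -27.4. It was the highest of the 4 KD tumors in 8 of the 10 genes here and in 942 of the 1910 genes (49.3%) called lower in ND tumors, where the other KD tumors were highest in 15.2% to 18.1%. Without it the uptake sum of KD tumors was 107 ± 45.6 (n = 3), and the KD tumor differences were -3.75 for Slco1a1, -2.71 for Slco1b2, -1.86 for Abcb11, -1.14 for Abcb4, -0.83 for Abcc2, -1.17 for Abcc3, -1.45 for Nr1h4 and -0.09 for Nr0b2. Without KD tumor 4 the same numbers of the 10 genes passed in each comparison, and without KD tumors 3 and 4 none passed between the diets in tumors.

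Over the 16 libraries, the members closest to each other were Abcb4 and Abcc3, with a root mean square difference of 0.32 between their centred log2 values, and Abcb11 and Nr1h4 (0.41). Slco1a1 was far from all, with Slco1b2 as the nearest member at 0.85. Of 7843 genes outside the 10, the patterns most like Slc10a1 (own spread 1.35) were Apoa5 (0.35), an apolipoprotein of triglyceride metabolism, Dpys (0.38), an enzyme of pyrimidine breakdown, and Akr1c6 (0.42), a hydroxysteroid dehydrogenase. Those most like Slco1a1 (own spread 2.05) were Mup-ps16 (0.50), Mup2 (0.53), a major urinary protein, and Cyp4f14 (0.54). Nudt7 (0.36), a peroxisomal coenzyme A hydrolase, was nearest to Slco1b2 (own spread 1.49), and Nox4 (0.41) to Slco1a4 (own spread 1.12). Aspdh (0.24) was nearest to Abcb11, Faah (0.23) to Abcb4, Dennd5b (0.14) to Abcc2, Cxxc1 (0.25) to Abcc3, Ddhd2 (0.20) to Nr1h4 and Exosc2 (0.22) to Nr0b2. The libraries share tissue and diet, and these distances describe likeness only.

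Of 14 tested synthesis genes 11 fell and none rose in ND tumors (median -1.86), and 8 fell and 1 rose in KD tumors (median -0.93). These counts and those of the lists that follow can be read against the shares of all tested genes called on ND and KD. These shares were 28.7% and 32.5% in either direction, 14.2% and 16.2% lower, and 14.5% and 16.3% higher. On TPM as deposited 4 synthesis genes fell on ND, 5 fell on KD, and none rose in tumors of either diet. Cyp8b1, the sterol 12-hydroxylase, had log2 fold changes of -5.78 on ND and -4.62 on KD, and Cyp7b1, an oxysterol hydroxylase, of -5.76 and -4.22. Cyp27a1, the first enzyme of the alternative pathway, had -3.09 and -3.52. Cyp39a1, another oxysterol hydroxylase, was 1.43 higher in KD tumors, a call lost without KD nontumor 3 (adjusted p = 0.0729) or KD nontumor 4 (adjusted p = 0.0755). Between the diets in tumors 6 of 14 were higher on KD and none lower, where 7.21% of all tested genes were called higher and 8.49% lower. None was higher on the deposited scale, and 2 were higher without KD tumor 4. The 6 were led by Cyp39a1 (1.77), Cyp7b1 (1.70) and Cyp7a1 (1.55, adjusted p = 0.00183). Cyp7b1 was at 1.17 (adjusted p = 0.0554) without KD tumor 4. Cyp7a1, the rate-limiting enzyme of the classic pathway, was at 15.3, 18.7, 17.9 and 24.2 rescaled TPM in KD nontumor liver and at 4.31, 3.74, 2.75 and 2.29 in ND nontumor liver. In tumors it was at 1.54, 1.14, 1.58 and 4.45 on KD and at 0.00, 0.00, 0.00 and 0.0330 on ND, from 0 or 1 read. Its diet difference in tumors was thus measured from the floor, and it fell in tumors of both diets (-2.06 on ND and -2.74 on KD). It was the synthesis gene that passed between the diets in nontumor liver (2.24, adjusted p = 0.000617), where none of the 10 carriers and receptors did.

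Other carriers moved in mixed directions. Of 9 other uptake carriers 3 fell in ND tumors and 3 fell and 2 rose in KD tumors (medians -0.82 and -0.12), with Slco2b1, another organic anion carrier, at -1.79 and -1.89. Slc10a2, the ileal and biliary bile acid carrier, was 1.61 higher in KD tumors. Of 10 other canalicular proteins 4 fell and 1 rose on ND and 5 fell and 1 rose on KD, and on the deposited scale none passed in either. Among these Abcg2, a multidrug exporter, had a log2 fold change of -1.53 on ND, the sterol exporters Abcg5 and Abcg8 had -1.39 and -1.32 on KD, and the drug exporter Abcb1a was higher by 0.73 and 0.75. Of 7 other basolateral exporters 3 rose and 2 fell on ND, and 1 rose and 2 fell on KD. Abcc6 was lower by -1.06 and -2.27 and Abcc5 was 1.10 higher on ND.

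Slc51b, the beta subunit of the basolateral bile acid exporter OSTα-OSTβ and a known FXR target, rose in tumors of both diets. It had 0.528, 2.20, 0.590 and 0.00 rescaled TPM in ND nontumor liver and 23.9, 16.4, 0.00 and 10.1 in ND tumors. On KD it had 2.84, 1.70, 1.27 and 0.00 in nontumor liver and 18.9, 6.45, 61.1 and 30.1 in tumors. ND tumor 3 had no read, and the other tumors had 26 to 329. The rise was 2.32 on ND (SE 0.82, adjusted p = 0.0437), lost in 9 of the 16 fits that left out 1 library (adjusted p up to 0.141, without ND tumor 1), and 3.39 on KD (SE 0.82, adjusted p = 0.00503). Slc51a, the gene of the alpha subunit, was too low to be tested, at 0 to 26 reads per library. Abcc4, another basolateral bile acid exporter, was also low and did not pass (0.40 on ND and 0.28 on KD). Among all tested genes 28.7% and 32.5% were called in either direction in ND and KD tumors. Of 18 tested FXR targets outside the 10 genes, 4 rose and 4 fell in ND tumors (median -0.02) and 5 rose and 1 fell in KD tumors (median 0.56). On the deposited scale these counts were 4 and 0 on ND and 2 and 0 on KD. Apoa5 had a log2 fold change of -2.52 and -0.95 in these comparisons and was 2.02 higher in KD than in ND tumors. Its KD tumor call was lost without KD nontumor 4 (-0.86, adjusted p = 0.0546), KD tumor 1 (-0.72, adjusted p = 0.0660) or KD tumor 2 (-0.80, adjusted p = 0.0625).

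Among 19 other nuclear receptors and cofactors of the pathway 6 fell and 1 rose in ND tumors and 7 fell in KD tumors (medians -0.33 and -0.40). Nr1i3, the receptor CAR, had log2 fold changes of -2.57 and -3.47, and Nr1h5, the receptor FXR beta, of -3.61 and -2.99. Rxra, the partner of FXR, passed in neither tumor comparison (-0.33 and -0.36, adjusted p = 0.196 and 0.153), nor did Hnf4a, a main hepatocyte regulator (-0.12 and -0.08). Nr5a2, the receptor LRH-1 that SHP represses, rose in ND tumors by 0.79 (adjusted p = 0.00328) and was lower in KD than in ND tumors by -0.76 (adjusted p = 0.0118). Of 7 tested genes listed for enterohepatic signal reception 2 rose and none fell in ND tumors, and 2 rose and 3 fell in KD tumors (medians -0.07 and -0.26). Fgfr4 and Klb, the hepatocyte receptor and coreceptor for the gut hormone FGF15, were lower in KD tumors by -1.74 and -1.19 and did not pass in ND tumors (-0.40 and -0.70), and Fgf15 itself was not analysed here. Fgfr4 was also lower in KD than in ND tumors (-1.17, adjusted p = 0.018). Of 14 genes for trafficking of the pumps and for the canalicular membrane 3 rose and 3 fell on each diet, with Dpp4, a canalicular peptidase, at -2.22 and -1.09 and Aqp8, a canalicular water channel, at 1.41 and 2.12.

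Several wider hepatocyte programs moved in the same samples, and their part in the results above was not tested. Of 15 genes known to be higher in male mouse liver, Slco1a1 among them, 14 fell in ND tumors and 11 in KD tumors, and of 8 tested female-biased genes 4 rose on ND and 5 on KD and 1 fell on each, Acot3 (-1.01 and -1.61). Of 12 targets of CAR and its relative PXR 7 fell on ND and 6 on KD, and of 15 NRF2 targets 5 rose and 2 fell on ND and 4 rose and 2 fell on KD. Of 16 pericentral hepatocyte genes 14 fell in ND tumors and 12 in KD tumors. Between the diets in tumors 10 were higher on KD with none lower (median 1.46), or 2 higher on the deposited scale. In the main fit 7.21% of all tested genes were called higher between these groups and 8.49% lower. Summed pericentral levels were 227 to 366 rescaled TPM in ND tumors and 929 to 2371 in KD tumors, the highest being KD tumor 4, and 3160 to 6788 in nontumor liver. Of 12 periportal genes 7 fell and 2 rose on each diet, and none passed between the diets in tumors.

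Markers fixed for the labelled tissue and for other cells were set beside these changes, and their part was not tested either. No hepatocyte marker in the table was at 0 throughout a group. Of 12 tested 2 fell on each diet while 2 rose on ND and 5 on KD (medians 0.40 and 1.27). Summed hepatocyte markers on ND were 48622 to 87994 rescaled TPM in nontumor liver and 78738 to 140520 in tumors. On KD they were 31441 to 91632 in nontumor liver and 138740 to 205900 in tumors. Summed cholangiocyte markers were 108 to 338 rescaled TPM in nontumor liver and 683 to 2692 in tumors, with 3 of 12 rising and 2 falling on each diet (medians -0.09 and 0.07). In tumors a large part of this sum was Spp1, at 509 to 2548, against 32.5 to 247 in nontumor liver. Without Spp1 and Tspan8 the other 12 listed genes summed to 75.6 to 97.7 in nontumor liver. These 12 summed to 75.5 to 109 in ND tumors and to 69.8 to 72.0 in KD tumors. The risers included Spp1 and Tspan8, while Krt19 fell on ND and Cftr was at 0 in all ND tumors. Summed endothelial markers were 167 to 312 in nontumor liver and 165 to 361 in tumors, with 5 of 14 rising and 3 falling on ND and 1 rising on KD. Summed macrophage markers were 262 to 630 in nontumor liver and 246 to 583 in tumors, with 2 of 14 rising and 6 falling on ND and 3 and 4 on KD. Summed stellate cell and fibroblast markers were 54.5 to 183 in nontumor liver and 122 to 323 in tumors, with 3 of 12 rising and 4 falling on ND and 4 and 2 on KD. Those of T, NK and B cells were 12.4 to 33.5 and 16.7 to 48.0, with 2 of 9 rising on ND and 1 on KD. Red blood cell genes summed to 575 to 6714 in nontumor liver and 273 to 3338 in tumors, and 4 of 6 fell in ND tumors and none passed in KD tumors.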

How the data were processed

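RNA was sequenced from 16 samples. Per the submitters' processing notes, FastQC, HISAT2, SAMtools, featureCounts and build mm10 were used; versions and the step to TPM were not given in the sources used here. The authors deposited TPM for 20601 genes. Nontumor columns carry P where titles carry N and were matched by diet and number, and 0 columns were left unused. Whole reads were recovered from the TPM steps (all 20601 genes within 0.001) for depth and the voom fit; no libraries of a group were copies. TPM were divided by median-of-ratios factors over 12119 genes above 0 in all libraries, a choice made because ND nontumor 4 has a small listed total, and log2(value + 1) was fitted with limma 3.58.1 (R 4.3.3, variance trend, 4 group means). Tested genes reached a TPM of 1 in 4 or more of the 16 libraries. Positions are from RefSeq (GRCm38.p6), as are promoters. All 10 members are named, with up to 3 passing genes per direction of each context list and some fixed genes of the pathway; likeness used genes with a mean of at least 5. Members, lists and tests were chosen with earlier results of these data known. Other promoter motifs were looked at and are not given. On simulated data for the ND comparison (13196 genes), 12% of 2-fold and 94% of 4-fold changes were recovered, with 11 unchanged genes called. Alternatives were the deposited scale, a common sum, a pseudocount of 0.1, no filter, only the groups compared, sample weights, replicate blocks, voom and each library left out. Leaving out KD tumors 3 and 4 together, the deposited scale without ND nontumor 4 and the voom fit were chosen after seeing the data. Python 3.11.15 was used.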

Additional observations from a re-analysis of the deposited data

Results flagged for a closer look

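Of 40 groups of 4 libraries (10 genes in 4 groups), 3 had a library that stood far from the other 3, and chance alone gives about 1 in 20, or 2 here. Slco1a1 was at 48.9 rescaled TPM in ND nontumor 4, against 84.6 to 90.4 in the other ND nontumor libraries. Slco1a4 was at 12.3 in KD tumor 4, against 1.56 to 2.03 in the other KD tumors. Slco1b2 was at 102 in KD tumor 4, against 26.8 to 38.7. ND nontumor 4 is also the library whose listed genes made up 7.38% of its TPM total, and KD tumor 4 the one nearest to nontumor liver among the KD tumors; the part of either in these values was not tested.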

How the results depend on the processing

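On TPM as deposited, where the median gene shifts by 0.42, -0.26, -0.00, 0.69 and -0.67 (log2) for tumor against nontumor on ND and on KD, the diets in tumors, the diets in nontumor liver and the interaction, 4, 4, 0, 0 and 0 of the 10 genes passed, with Slc10a1 at 2.04 (adjusted p = 0.180) and Abcc3 at -0.81 (adjusted p = 0.857) between the diets in tumors, and 1418, 1111, 113, 65 and 14 of all genes in place of 3855, 4361, 2109, 6 and 82. With ND nontumor 4 left out, the deposited scale gave 8, 9, 2, 0 and 0 members and 129 genes for the interaction. A common sum of the listed genes (median shifts 0.20, -0.25, -0.33, 0.10 and -0.45) gave 8, 9, 3, 0 and 0 members, with Abcb4 lower in KD than in ND tumors (-0.70, adjusted p = 0.0186), and 13 and 542 of all genes for the diets in nontumor liver and the interaction. Sample weights gave 1 member for the diets in nontumor liver (Abcb4, -0.61, adjusted p = 0.0225) and 433 and 386 of all genes for these comparisons. No filter gave 10 and 32, and only the groups compared gave 2 for the diets in nontumor liver. Without KD tumors 3 and 4, 0 members and 261 genes passed between the diets in tumors and 14 for the interaction. Slc10a1 in KD tumors had an adjusted p of 0.0563 with no filter and 0.0848 with only the groups compared, where Slco1a4 had 0.0660.

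Leaving out each library in turn gave 8 to 8, 7 to 9, 2 to 2, 0 to 0 and 0 to 0 members and 3088 to 4049, 3264 to 4494, 1046 to 2517, 5 to 12 and 9 to 190 of all genes. The log2 ratio of Slco1a4 to Slco1a1 ran from 1.09 to 1.83 and 1.66 to 2.88 for tumor against nontumor on ND and KD, from -0.45 to 0.76 for the diets in tumors and from -0.75 to -0.31 in nontumor liver. That of Abcc3 to Abcb11 ran from 0.41 to 0.86, 0.30 to 0.67, -0.98 to -0.53 and -0.76 to -0.43. Correlations of tumor and nontumor deviations ran from -0.112 to 0.164 for equal replicate numbers and from -0.229 to 0.181 for unequal ones. Tissues of the same mouse need not correlate in this way, so whether equal numbers mark the same mouse stayed undecided. With the number as a fixed block, and as a random block, 8, 9, 2, 0 and 0 members passed, and the fixed block gave 27 genes for the interaction. Over 27 settings, 25 member calls were lost, 2 gained and 0 reversed, and 38 values changed sign without passing in either of the fits compared. Of the context genes, Abcc10 (0.00874) and Aldh4a1 (0.074) reversed on the deposited scale for tumor against nontumor on ND. The cause was not tested in any of these cases. In the simulated data most 2-fold changes were missed at 4 libraries a group. Only 100 genes were changed by each size there, whereas 3855 genes passed on ND in the main fit. That share does not measure what the fits above missed, and small changes may still have been missed.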
